A study of Mus musculus with 22 samples.

Results

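The replicative helicase genes Mcm2, Mcm3, Mcm4, Mcm5, Mcm6 and Mcm7, the helicase loading genes Cdc6 and Cdt1, the helicase activation gene Gins2 and the sliding clamp gene Pcna were followed by ATAC-seq, in which Tn5 transposase marks accessible DNA, across 22 libraries of mouse germ cells in 7 groups. A peak belonged to one of these 10 genes when it overlapped the gene body or the 2 kb on either side of it in mm10. By that rule 14 of the 96049 peaks in the deposited table were members. Of these, 10 were start peaks, 1 for each gene, which cover the transcription start or lie at an end of the gene. The other 4 lay outside the genes, 1 upstream of Mcm5, 1 downstream of Pcna and 2 downstream of Cdc6.

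All libraries came from C57BL/6 mice aged 8 to 12 weeks, and cells were purified by FACS. Spermatogonia of 17 libraries were taken 7 days after tamoxifen from mice with the genotype entry TertCreER/+:Rosalsl-Tdtomato/+, in which, as the allele names read, a tamoxifen-activated Cre sits at Tert, the telomerase catalytic subunit gene, beside a Cre-dependent red reporter. The titles divide them into TERT-hetero, here called control, and TERT-deleted, while the genotype entry is the same for both and does not spell out the deleted allele. The 2 KIT-negative gates, MCAM-high and MCAM-medium, are labelled undifferentiated, and the KIT-positive gate, itself MCAM-medium, is labelled differentiating. MCAM is a surface adhesion molecule and KIT a receptor tyrosine kinase of differentiating spermatogonia. Control libraries numbered 3, 2 and 3 in that order and deleted libraries 3 in each population. A further 5 libraries, with the genotype entry TertTdtomato/+ and no entry for a time after tamoxifen, are labelled spermatocyte or round spermatid. In 4 of those 5 the title and the library name disagree on the cell type, so they were kept as 1 group, called later germ cells, and each library's value is given. Their first 2 libraries carry a spermatocyte title and the other 3 a round spermatid title.

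Before each S phase, origin recognition proteins, Cdc6 and Cdt1 load the Mcm2-7 ring onto DNA as a double hexamer, which licenses the origin. At S phase onset the ring is joined by Cdc45 and the GINS complex, of which Gins2 is a subunit, and becomes the active helicase, while Pcna holds the polymerases on the template. Many of these genes are known targets of E2F factors, which drive transcription at the entry into S phase. In the testis, KIT-positive spermatogonia go through a series of rapid divisions that end with the last round of replication before meiosis, and neither later spermatocytes nor round spermatids replicate their genome.

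The promoters were read first, because the same short letters recur in them. RefSeq (assembly GRCm38.p6) listed a promoter window, from 250 bases before to 50 after a start, for 8 of the 10 genes. Mcm4 and Gins2 were not matched. A search of both strands for TTTCCCGC, TTTCGCGC, TTTGCCGC or TTTGGCGC, letters typical of E2F sites, found at least 1 in 6 of the 8 genes, namely Mcm3, Mcm5, Mcm6, Mcm7, Cdc6 and Cdt1. Counted by window, 6 of the 9 windows of these genes held such a match, and 744 (2.26%) of all 32851 windows in that table. Among tested start peaks of any gene with a listed window, 534 of 11301 (4.73%) had the letters. CCAAT, the letters of NF-Y sites, was present in 6 of the 8 genes. It was in 7 of their 9 windows, in 37.4% of all windows and in 44.8% of those tested start peaks. A match describes letters and is no evidence of binding. The 30 bases around 1 match of each of the 6 genes are given here, on the strand of the gene, 5′ to 3′, with the E2F letters of either strand in capitals. Every window lies within the gene's start peak.
Mcm3: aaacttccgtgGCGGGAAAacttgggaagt
Mcm5: gccaagaacTTTCGCGCCAAAacgtccagc
Mcm6: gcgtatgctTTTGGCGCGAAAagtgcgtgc
Mcm7: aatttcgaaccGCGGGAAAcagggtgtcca
Cdc6: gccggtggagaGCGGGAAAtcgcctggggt
Cdt1: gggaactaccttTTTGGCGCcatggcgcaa
These windows are at chr1:20820275-20820304 (Mcm3, minus strand), chr8:75109347-75109376 (Mcm5, plus), chr1:128359795-128359824 (Mcm6, minus), chr5:138172030-138172059 (Mcm7, minus), chr11:98908002-98908031 (Cdc6, plus) and chr8:122568035-122568064 (Cdt1, plus). In Mcm5 and Mcm6 matches on opposite strands overlap and form 1 palindrome-like stretch of capitals, whereas the windows of Mcm3, Mcm7, Cdc6 and Cdt1 hold 1 match each. Relative to the listed start, the match begins 153 bases before it in Mcm5, 110 before it in Mcm6, 165 before it in Mcm7 and 138 before it in Cdc6. It begins 19 bases after the start in Mcm3 and 32 after it in Cdt1.

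Mcm6 and Pcna show the contrast between a promoter with and without these letters. The 150 bases before each start follow, with E2F letters and CCAAT of either strand in capitals.
Mcm6: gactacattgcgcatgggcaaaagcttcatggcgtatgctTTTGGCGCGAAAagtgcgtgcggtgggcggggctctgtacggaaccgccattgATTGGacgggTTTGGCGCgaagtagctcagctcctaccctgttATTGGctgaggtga
Pcna: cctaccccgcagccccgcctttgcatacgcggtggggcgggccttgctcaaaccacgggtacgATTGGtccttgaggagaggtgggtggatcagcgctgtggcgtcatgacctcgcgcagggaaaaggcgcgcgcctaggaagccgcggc
They span chr1:128359706-128359855 (minus strand) for Mcm6 and chr2:132253181-132253330 (minus strand) for Pcna. Mcm6 holds 2 stretches of E2F letters and 2 CCAAT, Pcna 1 CCAAT and no E2F letters of the 4 kinds searched. The Pcna start peak was among those with the steepest rise in KIT-positive cells, as given below. Other E2F-like letters and the rest of that peak were not searched, and the part of the letters in the rise was not tested.

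Several start peaks belong to more than 1 gene, and for these the signal cannot be assigned to either. The Mcm4 peak (chr16:15636995-15638105) also covers the end of Prkdc that faces Mcm4, 44 bp from it. The Mcm7 peak (chr5:138170951-138172655) covers 2 listed Mcm7 starts and that of Ap4m1, and Mcm7 hosts the microRNA genes Mir25, Mir93 and Mir106b. The Gins2 peak (chr8:120588678-120589630) covers the start of the lncRNA gene Gm10614, 102 bp from Gins2. The Pcna peak (chr2:132252506-132253545) reaches Cds2, which begins 158 bp away. The start peaks of Mcm2 (chr6:88898396-88898969), Mcm3 (chr1:20819833-20820629), Mcm5 (chr8:75109084-75110173), Mcm6 (chr1:128359229-128360064), Cdc6 (chr11:98907504-98908403) and Cdt1 (chr8:122567539-122568366) overlapped no other gene in the table. Of the outer peaks, that downstream of Pcna (chr2:132247470-132248268) contains the start of Tmem230.

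Total counts in peaks ran from 922085 to 3358377 per library, and a start peak of these genes held between 17 and 462 counts in a library. Values are CPM, counts scaled to library size with TMM, a method that sets the bulk of shared peaks equal between libraries. Because peaks differ in width, CPM is compared between groups and not between genes. Counts in gene start peaks of any kind made up 49.6% ± 0.92 of the total in control MCAM-high cells (SD, n = 3), 55.2% ± 5.56 in control KIT-positive cells (n = 3) and 56.3% ± 3.10 in deleted KIT-positive cells (n = 3). The part of this shift in the results below was not tested, but scaling on start peaks alone was run and is given where it ended a call. At the start of Tert itself CPM was 14.6 to 31.1 in control and 12.8 to 22 in deleted spermatogonia, which overlap. The peak cannot serve as a check of the deletion, since the part of Tert removed is not given in the sources used here. The labels do not state whether replicates are separate mice. Names of the later germ cell libraries share a tag and differ only in cell type, letter and cell number. The labels do not say what the tag stands for, but these libraries may come from the same mouse. Names of the spermatogonial libraries carry a genotype tag and a number that recur across populations. Populations with the same tag and number may therefore share a source. The main fit held no such pairing, and a replicate block was run as an alternative. The tests therefore rest on the spread between libraries alone, which may be technical.

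**Figure D1:**
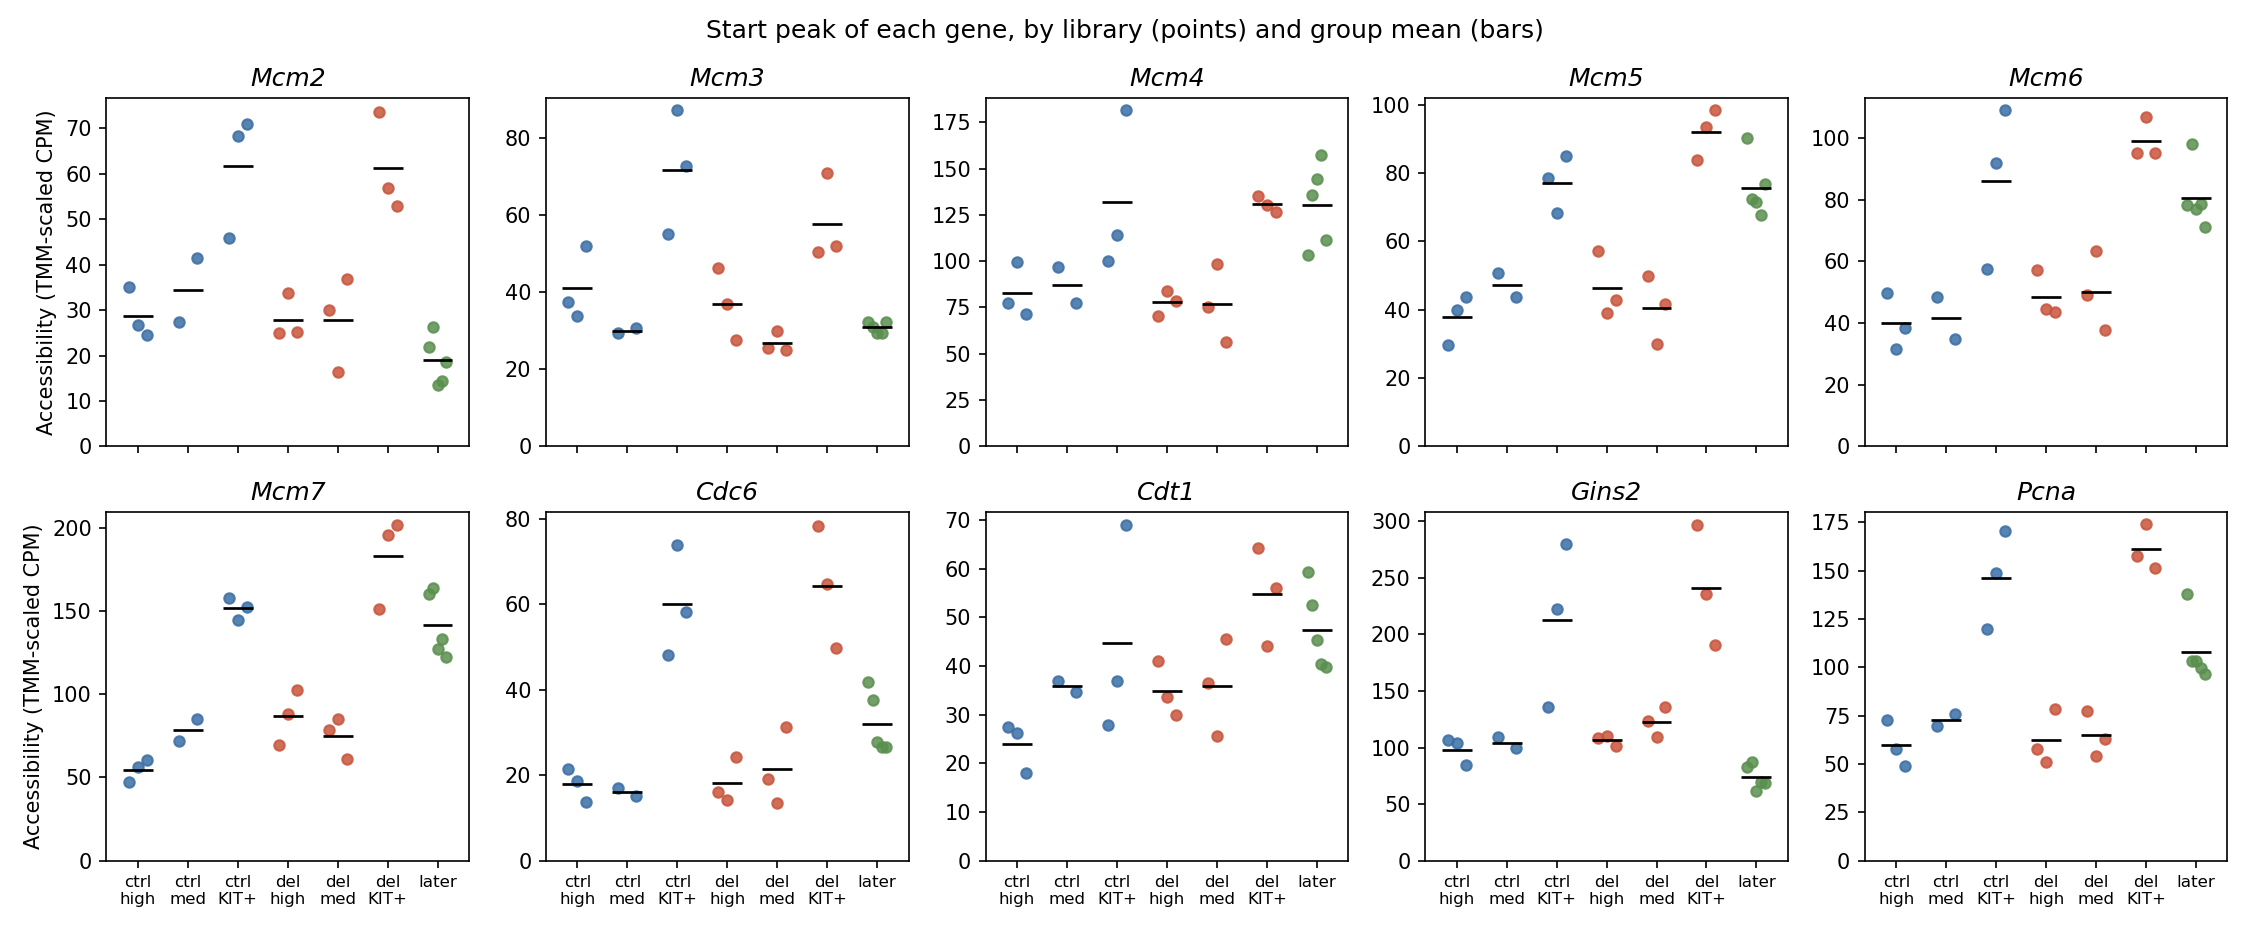
Accessibility (TMM-scaled CPM, linear axis from 0) at the start peak of each of the 10 genes, 1 point per library and a bar for the group mean. Columns are control (ctrl) and TERT-deleted (del) MCAM-high, MCAM-medium (med) and KIT-positive cells, and later germ cells. Means of both KIT-positive columns stand above those of the KIT-negative ones in each panel, and later germ cells fall to or below the KIT-negative level for Mcm2, Mcm3 and Gins2 only.

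Whether licensing genes open as spermatogonia pass from the KIT-negative to the KIT-positive state was asked first in control cells. All 10 start peaks rose in KIT-positive against MCAM-high cells, with a median log2 fold change of 1.09 and a range of 0.68 to 1.71 (edgeR quasi-likelihood test, Benjamini-Hochberg adjusted p under 0.05 for each). Over all 57289 peaks tested, 9.64% rose in that comparison. Over the 14499 start peaks of any gene 16% rose and 4.32% fell, with a median of 0.22. In all 10 genes the 3 KIT-positive libraries lay above the 3 MCAM-high libraries, which was so for 16.1% of all peaks tested. Replication genes were already named among the peaks that rise here in earlier work on these data, so their direction is not independent evidence.

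Among the ring subunits Mcm7 changed most. Its CPM was 47.2, 56.1 and 60.7 in the control MCAM-high libraries, 72 and 85.1 in the MCAM-medium ones and 158, 144 and 153 in the KIT-positive ones. MCAM-medium libraries thus lay between the other populations with no overlap, and KIT-positive minus MCAM-high was a log2 fold change of 1.47 ± 0.21 with its SE (edgeR adjusted p = 3.21e-06). Mcm6 was at 49.7, 31.6 and 38.3 in MCAM-high, 48.3 and 34.7 in MCAM-medium and 57.5, 91.8 and 109 in KIT-positive cells, a difference from MCAM-high of 1.10 ± 0.25 (edgeR adjusted p = 0.00159). One KIT-positive library, replicate 1, sat well below the other 2 yet above every KIT-negative control library. Mcm5 went from 29.7, 40.1 and 43.8 in MCAM-high and 50.7 and 43.7 in MCAM-medium to 78.4, 68.3 and 84.9 in KIT-positive cells (1.04 ± 0.24, edgeR adjusted p = 0.00186). Here the KIT-positive libraries were close together and clear of all 5 KIT-negative ones.

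Mcm2 was at 35.1, 26.7 and 24.6 in MCAM-high, 27.5 and 41.4 in MCAM-medium and 45.8, 68.3 and 70.9 in KIT-positive cells (1.08 ± 0.28, edgeR adjusted p = 0.00563). The lowest KIT-positive library was near the highest MCAM-medium one. Mcm3 was at 37.6, 33.8 and 52, 29.4 and 30.8 and 55.1, 87.4 and 72.7 in the same order (0.80 ± 0.25, edgeR adjusted p = 0.0245), with MCAM-high replicate 3 close to the lowest KIT-positive library. Mcm4, whose peak is shared with Prkdc, was at 77.7, 99.7 and 71.7, 96.6 and 77.3 and 100.2, 114 and 182 (0.68 ± 0.22, edgeR adjusted p = 0.0325). The rise of Mcm4 leaned on KIT-positive replicate 3: without that library it was 0.36, with an adjusted p of 0.326. That library had 60.9% of its counts in start peaks of any gene, against 49.8% in KIT-positive replicate 1 and 54.9% in replicate 2, and the lowest TMM factor of the 22 libraries (0.858). Of its non-zero peak counts 73.9% were even numbers, against 50.7% and 62.5%. Similar shares were found in deleted KIT-positive replicate 1 (70.5%) and deleted MCAM-medium replicate 3 (73.7%). Of the 3 control KIT-positive libraries, replicate 1 was the lowest at 8 of the 10 start peaks, all but Mcm5 and Mcm7. The part of these differences in the rise was not tested. The calls of Mcm3 and Mcm4 were also lost when libraries were scaled to total counts (0.63 and 0.49, adjusted p = 0.0701 and 0.0799), when TMM used start peaks only (0.57 and 0.44, adjusted p = 0.0954 and 0.107). Mcm3 was also lost without MCAM-high replicates 1 or 2 or KIT-positive replicates 2 or 3 (0.63 to 0.79, edgeR adjusted p of 0.0602 to 0.136), and Mcm4 without MCAM-high replicates 1 or 3 (0.63 and 0.57, 0.0816 and 0.147).

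The loading factors are given next, and whether their rises differ from each other was not tested. Cdc6, the ATPase that brings the ring to the origin, had the largest rise of the 10 start peaks: 21.5, 18.7 and 13.7 in MCAM-high, 17.1 and 15.1 in MCAM-medium and 48.2, 73.9 and 58.2 in KIT-positive cells, a 3.28-fold difference from MCAM-high (1.71 ± 0.30, edgeR adjusted p = 7.02e-05). The lowest KIT-positive library was more than double any KIT-negative control library. Cdt1, the partner of Cdc6 in loading, was at 27.6, 26.3 and 18.1, 36.9 and 34.7 and 28, 37 and 69.1 (0.91 ± 0.30, edgeR adjusted p = 0.0288). Its lowest KIT-positive library barely exceeded the MCAM-high ones and lay below both MCAM-medium ones. Without KIT-positive replicate 3 the Cdt1 difference was 0.41 (adjusted p = 0.476), and scaling to total counts (0.71, adjusted p = 0.0718) or TMM on start peaks (0.65, adjusted p = 0.0911) also ended its call.

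Downstream of loading, Gins2 was at 107, 104 and 84.2 in MCAM-high, 109 and 99.7 in MCAM-medium and 136, 223 and 280.1 in KIT-positive cells (1.12 ± 0.22, edgeR adjusted p = 0.000326). KIT-positive libraries were spread over a factor of 2 but all exceeded the KIT-negative ones. Pcna was at 72.6, 57.9 and 48.7, 69.6 and 75.6 and 119.6, 149 and 170.3 (1.28 ± 0.22, edgeR adjusted p = 5.73e-05). For Pcna no KIT-positive library came near a KIT-negative one. Gins2 and Pcna, like Mcm2, Mcm5, Mcm6, Mcm7 and Cdc6, stayed called under the other test, scalings, filter, block and left-out libraries that were tried for this comparison.

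Beyond the start peaks, the peak 528 bp upstream of Mcm5 (chr8:75108672-75108940) was faint, at 1.79, 3.56 and 5.47 in MCAM-high and 21.7, 4.48 and 12.1 CPM in KIT-positive cells, and rose by 1.87 ± 0.57 (edgeR adjusted p = 0.0194). The ranges overlap through KIT-positive replicate 2, so the rise comes mainly from replicates 1 and 3. The peak downstream of Pcna, at the Tmem230 start, went from 12.9, 5.34 and 14.2 to 23.3, 34.7 and 43 (1.64 ± 0.38, edgeR adjusted p = 0.00188). Both peaks downstream of Cdc6 (chr11:98925281-98925578 and chr11:98925786-98926202) were below 20 CPM in every library and did not pass the test (1.19 ± 0.52 and 0.36 ± 0.48, edgeR adjusted p = 0.118 and 0.667).

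Against control MCAM-medium cells, of which there are only 2 libraries, 6 of the 10 start peaks rose in KIT-positive cells, with 5.7% of all peaks tested rising. They were Mcm3 (1.24 ± 0.30), Mcm6 (1.05 ± 0.29), Mcm7 (0.93 ± 0.24), Cdc6 (1.88 ± 0.35), Gins2 (1.03 ± 0.25) and Pcna (1.0 ± 0.25), each with an edgeR adjusted p of at most 0.0140. Mcm2 (0.83 ± 0.32, adjusted p = 0.0900), Mcm4 (0.61 ± 0.25, 0.126), Mcm5 (0.71 ± 0.27, 0.0853) and Cdt1 (0.33 ± 0.33, 0.574) did not pass edgeR's test. Counting all 14 member peaks, 7 rose, and that number moved between 2 and 9 when single libraries were left out. Without MCAM-medium replicate 1 only Cdc6 of the 6 start peaks stayed called, and the other 5 kept their direction (0.71 to 1.19, edgeR adjusted p of 0.0805 to 0.246). With only the 2 groups compared in the fit Mcm6, Mcm7, Gins2 and Pcna were no longer called (0.90 to 1.02, edgeR adjusted p of 0.0706 to 0.0854), and with a replicate block Mcm6 and Gins2 were not (0.97 and 0.93, 0.0822 and 0.0542). The calls of Mcm6 and Gins2 were also lost without MCAM-medium replicate 2 (0.87 and 1.01, edgeR adjusted p = 0.175 and 0.0662), and that of Mcm6 without KIT-positive replicate 3 (0.83, 0.0856).

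Between the KIT-negative populations no start peak passed the test. In MCAM-medium minus MCAM-high control cells 0 of 10 were called, as were 0% of all peaks, and 1 of the 10 had an unadjusted p under 0.05. That one was Mcm7, at 0.54 ± 0.23 (edgeR adjusted p = 1). In deleted cells 0 of 10 were called, against 0.014% of all peaks, and 0 had an unadjusted p under 0.05. DESeq2 called 0 member peaks in either genotype. The estimates still leave room for change: the 95% interval of Mcm3 was -1.02 to 0.15 in control and -1.0 to 0.13 in deleted cells on the log2 scale, and that of Pcna -0.21 to 0.78 and -0.39 to 0.54.

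The same step was then examined in TERT-deleted cells. Here 8 of 10 start peaks rose in KIT-positive against MCAM-high cells, with a median of 1.06 over the 10, and 9.39% of all peaks tested rose. For all 10 the deleted KIT-positive libraries lay above the deleted MCAM-high ones, as did 18.6% of all peaks. Cdc6 again led, at 16.1, 14.1 and 24.3 CPM in MCAM-high and 78.3, 64.6 and 49.7 in KIT-positive cells (1.83 ± 0.32, edgeR adjusted p = 7.29e-05). Pcna was at 58, 51.2 and 78.5 and 158, 174 and 151 (1.37 ± 0.23, edgeR adjusted p = 4.11e-05). In both genes the lowest KIT-positive library was roughly double the highest MCAM-high one.

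Gins2 was at 109, 110.4 and 101 in deleted MCAM-high and 296, 235 and 191 in deleted KIT-positive cells (1.18 ± 0.22, edgeR adjusted p = 0.000217). For the ring, Mcm7 went from 69.6, 88.2 and 103 to 151, 196 and 202 (1.07 ± 0.21), Mcm6 from 57.1, 44.4 and 43.7 to 95.1, 107 and 95.3 (1.04 ± 0.25), and Mcm5 from 57.1, 39 and 42.9 to 83.9, 93.4 and 98.5 (1.0 ± 0.24). These 3 subunits all roughly doubled. Mcm2 went from 25, 33.7 and 25.1 to 73.7, 57 and 52.9 (1.13 ± 0.29) and Mcm4 from 70.5, 84.1 and 78.5 to 135, 131 and 127 (0.75 ± 0.23). The 3 deleted KIT-positive libraries of Mcm4 were close together, unlike the control ones. The Mcm4 call was lost with total counts (0.52, adjusted p = 0.0730), with TMM on start peaks (0.50, 0.0755) and without any MCAM-high library or KIT-positive replicate 1 (0.69 to 0.80, edgeR adjusted p of 0.0526 to 0.0863). That of Mcm2 was lost without KIT-positive replicate 1 (0.93, edgeR adjusted p = 0.0572). That library had 59.7% of its counts in start peaks of any gene, against 53.6% in replicate 2 and 55.6% in replicate 3. Of its non-zero peak counts 70.5% were even numbers, against 52.9% and 51.7%. Among deleted KIT-positive libraries it was the highest at Mcm2, Mcm4, Cdc6, Cdt1 and Gins2 and the lowest at Mcm3, Mcm5, Mcm6 and Mcm7. The part of these differences in the rise was not tested. Mcm3, from 46.4, 37 and 27.5 to 50.3, 71 and 52.1 (0.65 ± 0.27, edgeR adjusted p = 0.0951), and Cdt1, from 41, 33.7 and 30 to 64.3, 44.2 and 56.1 (0.66 ± 0.30, 0.134), did not pass the test.

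**Figure D2:**
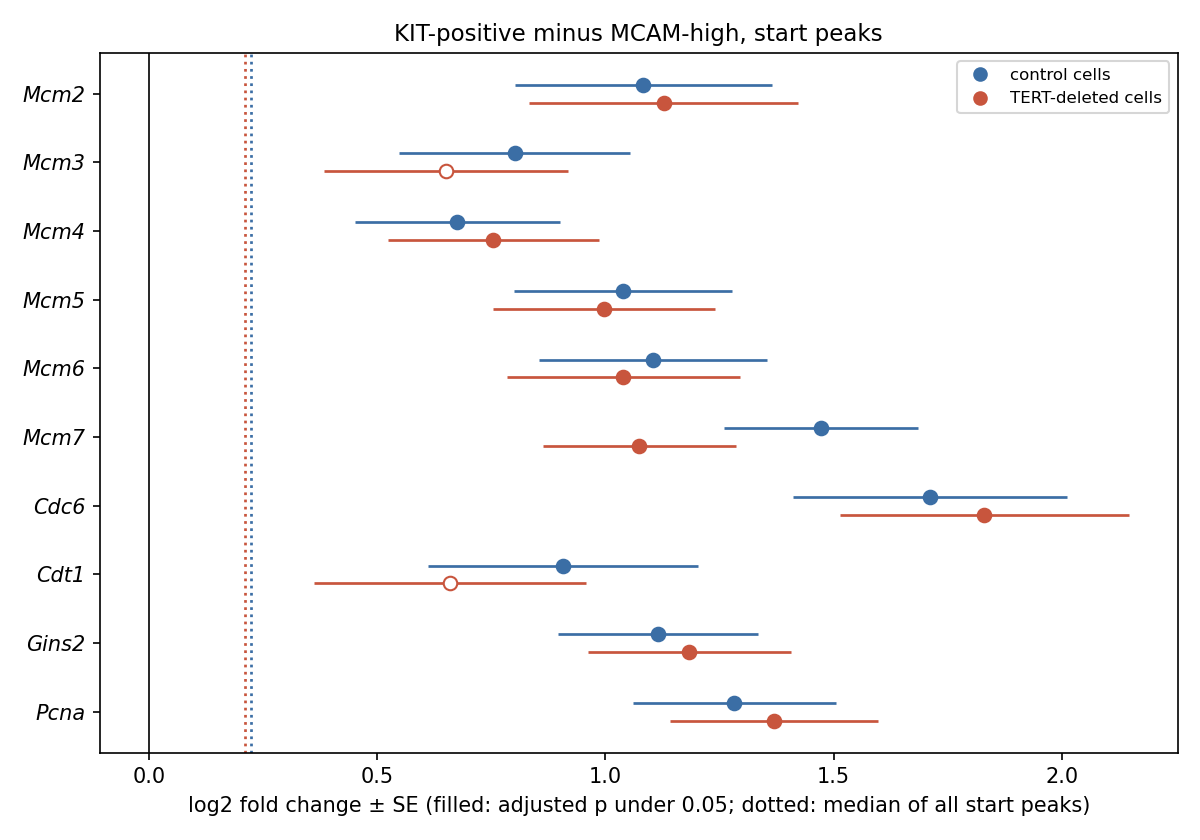
Log2 fold change of the start peak of each gene in KIT-positive against MCAM-high cells, in control (blue) and TERT-deleted cells (red), with bars of 1 SE. Filled points passed an edgeR adjusted p of 0.05, and dotted lines give the median of all start peaks, 0.22 in control and 0.21 in deleted cells. All 20 points lie to the right of those medians, with Cdc6 farthest, and 18 are filled.

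Against deleted MCAM-medium cells, 9 of 10 start peaks rose (4.59% of all peaks tested), from Mcm4 (0.75 ± 0.23, edgeR adjusted p = 0.0359) to Cdc6 (1.58 ± 0.31, 0.000745). The Mcm4 call was lost with total counts (0.55, adjusted p = 0.0844), with TMM on start peaks (0.51, 0.105) and without MCAM-medium replicate 1 or 3 or any KIT-positive library (0.59 to 0.80, edgeR adjusted p of 0.0579 to 0.189). The calls of Mcm2, Mcm3, Mcm6 and Gins2 were lost without certain deleted libraries (0.74 to 1.03, edgeR adjusted p of 0.0520 to 0.120): KIT-positive replicate 1 or MCAM-medium replicate 2 for Mcm2, MCAM-medium replicate 1 or KIT-positive replicate 2 for Mcm3, MCAM-medium replicates 1 or 3 for Mcm6 and KIT-positive replicate 1 for Gins2. Cdt1 did not pass (0.60 ± 0.29, edgeR adjusted p = 0.239). The Tmem230 start peak downstream of Pcna rose by 1.20 ± 0.39, just inside the threshold (edgeR adjusted p = 0.0499). Across both genotypes, the 6 KIT-positive libraries all exceeded the 11 KIT-negative ones at 7 of 10 start peaks, while 5.23% of all peaks tested had that order. The widest gaps were at Mcm7 (lowest KIT-positive library 144 CPM, highest KIT-negative 103), Pcna (119.6 and 78.5) and Cdc6 (48.2 and 31.4). The narrowest was Gins2 (135.9 and 135.7), and Mcm3, Mcm6 and Cdt1 overlapped.

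Scaling mattered for the balance of all peaks in these comparisons. Of all peaks called in control KIT-positive against MCAM-high cells 61.2% were higher with TMM, 44.8% with total counts and 41.0% with TMM on start peaks, and the median of all peaks moved from -0.05 to -0.22 and -0.26 on the log2 scale. In the other KIT-positive comparisons the higher share went from 61.2% to 43.8% and 40.1% (control MCAM-medium), from 68.4% to 46.3% and 44.8% (deleted MCAM-high) and from 66.9% to 44.4% and 40.3% (deleted MCAM-medium). Leaving out control MCAM-medium replicate 1 gave 46.7% against MCAM-medium cells.

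Whether loss of TERT changed accessibility at these genes was tested within each population. No start peak and none of the other 4 peaks passed the test in any population: 0 of 10 start peaks in MCAM-high cells (0.0489% of all peaks called), 0 in MCAM-medium cells (0.00873%), 0 in KIT-positive cells (0.00349%) and 0 for the mean over the 3 populations (0.124%). DESeq2 also called 0 of the 14 in each. Unadjusted p-values under 0.05 numbered 1 of 10 in MCAM-high cells, 0 in MCAM-medium cells, 0 in KIT-positive cells and 1 for the mean. Both were Mcm7.

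At Mcm7 the deleted MCAM-high libraries, at 69.6, 88.2 and 103, all exceeded the control ones, at 47.2, 56.1 and 60.7. The difference was 0.65 ± 0.21 (95% interval 0.21 to 1.08, edgeR adjusted p = 0.508), a value already reported for these data. In MCAM-medium cells Mcm7 was at 72 and 85.1 in control and 78.6, 84.9 and 61.2 in deleted libraries (-0.08 ± 0.24), and in KIT-positive cells at 158, 144 and 153 and 151, 196 and 202 (0.25 ± 0.21). The groups overlap in those populations. Averaged over populations Mcm7 was at 0.27 ± 0.13 (edgeR adjusted p = 0.885).

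For the other 9 genes the mean deletion effect ran from -0.22 ± 0.16 at Mcm3 to 0.25 ± 0.18 at Cdt1. The 95% intervals of these means were -0.55 to 0.10 for Mcm3, -0.49 to 0.20 for Mcm2, -0.39 to 0.16 for Mcm4, -0.20 to 0.38 for Mcm5 and -0.08 to 0.53 for Mcm6. They were -0.23 to 0.53 for Cdc6, -0.11 to 0.60 for Cdt1, -0.11 to 0.42 for Gins2 and -0.28 to 0.26 for Pcna. Each includes 0 and none reaches 1, a doubling. Within a single population the intervals were wider, from -0.98 to 0.32 for Mcm2 in MCAM-medium cells to -0.35 to 1.13 for Cdc6 there, so changes of up to about 2-fold in 1 population lie within the intervals of some genes. MCAM-medium cells rest on 2 control libraries.

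Whether the rise with KIT differed between the genotypes was tested as an interaction. No start peak passed (0 of 10, 0 with an unadjusted p under 0.05, 0 by DESeq2), nor did any of all peaks tested (0%). The difference of the rises, deleted minus control, was -0.40 ± 0.30 for Mcm7 (95% interval -0.99 to 0.20), -0.25 ± 0.42 for Cdt1 (-1.09 to 0.59) and 0.12 ± 0.44 for Cdc6 (-0.76 to 0.99). The median over the 10 genes was 0.00. These intervals allow the rise to differ between genotypes by up to about 2-fold for single genes.

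**Figure D3:**
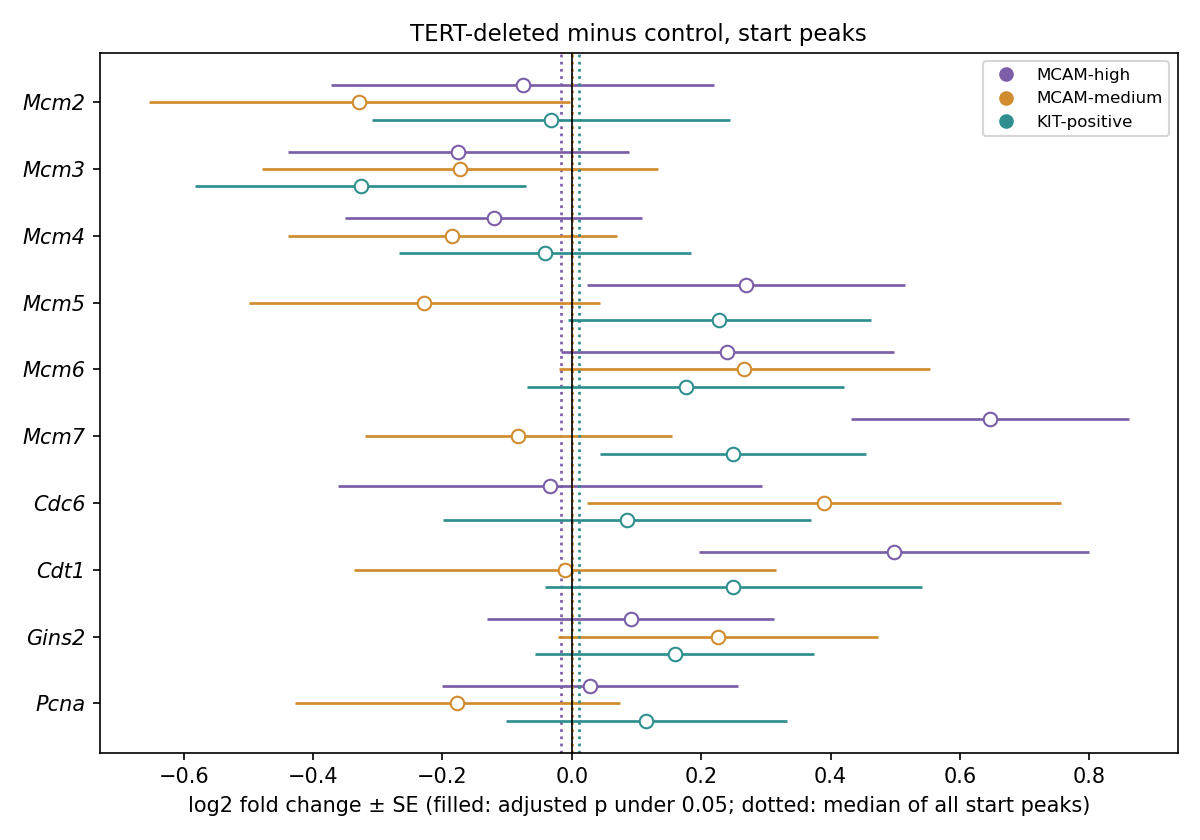
Log2 fold change of the start peak of each gene in TERT-deleted against control cells of the MCAM-high, MCAM-medium and KIT-positive populations, with bars of 1 SE and dotted lines for the median of all start peaks. Every point is open, so none passed an edgeR adjusted p of 0.05, and Mcm7 in MCAM-high cells, at 0.65, lies farthest from 0.

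For later germ cells the 10 genes are grouped by call, and whether the groups differ from each other was not tested. Against control KIT-positive cells 5 start peaks fell, those of Mcm2, Mcm3, Cdc6, Gins2 and Pcna, and 0 rose, while 22.8% of all 73134 peaks tested fell and 29.2% rose. Over all 15671 start peaks 28.5% fell and 24.2% rose. At Mcm2, Mcm3, Cdc6 and Gins2 the KIT-positive libraries all exceeded the 5 later ones, an order found at 18.9% of all peaks. Of 6 tested round spermatid markers 5 rose in this comparison and Crem fell, and the summed CPM of the 6 was 264 to 320.0 in later cells against 113 to 167 in control KIT-positive cells. Of 8 tested meiotic markers 4 rose and 1 fell, with sums of 388 to 517 and 253 to 286. Of 5 tested Sertoli markers 3 fell, with sums of 46 to 53.3 and 89.6 to 102. All 3 tested peritubular or endothelial markers fell, with sums of 12.7 to 29.4 and 32.5 to 69.1, as did the 1 tested Leydig marker. Of 8 undifferentiated spermatogonial markers 5 fell, and of 7 differentiating ones 4 fell and 0 rose. The part of these differences in cell content was not tested. Later libraries also differ from control spermatogonia in genotype entry and have no entry for a time after tamoxifen. Cell stage cannot be told apart from these differences in the later comparisons.

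Mcm2 was at 21.9, 26.3, 13.5, 14.4 and 18.5 CPM in the 5 later libraries, below all KIT-positive libraries and within or below the range of the KIT-negative ones, against a mean of 61.7 ± 13.8 (SD, n = 3) in control KIT-positive cells (-1.72 ± 0.26, edgeR adjusted p = 2.16e-07). Gins2 was at 82.7, 87.5, 61.1, 69.1 and 68.2 against 213 ± 72.6 (-1.57 ± 0.20, edgeR adjusted p = 1.79e-09). Mcm3 was at 32.4, 30.9, 29.4, 29.4 and 32.4 against 71.7 ± 16.1 (-1.24 ± 0.23, edgeR adjusted p = 1.34e-05), with hardly any spread between the later libraries. At these 3 start peaks the mean of later cells was below that of control MCAM-high cells. Relative to control MCAM-high, Mcm2 (-0.64 ± 0.27, edgeR adjusted p = 0.0369) and Gins2 (-0.45 ± 0.20, 0.0474) were lower, and Mcm3 did not pass (-0.44 ± 0.23, 0.103). Both lower calls were lost with DESeq2 (-0.44 and -0.25, adjusted p = 0.209 and 0.352) and without control MCAM-high replicate 1 (-0.47 and -0.39, adjusted p = 0.205 and 0.141). The Mcm2 call was also lost without later library 3, 4 or 5 (edgeR adjusted p of 0.0551 to 0.0856), and the Gins2 call without MCAM-high replicate 2 or later library 1, 3, 4 or 5 (edgeR adjusted p of 0.0520 to 0.118).

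Cdc6 fell in part, to 41.7, 37.5, 27.8, 26.7 and 26.6 from 60.1 ± 13 (-0.92 ± 0.25, edgeR adjusted p = 0.00191), and was still above control MCAM-high cells (0.79 ± 0.27, edgeR adjusted p = 0.00973). That last call was lost without MCAM-high replicate 3 (0.62, adjusted p = 0.0775). Pcna was at 138, 103, 103, 99.9 and 96.5 against 146 ± 25.5 (-0.47 ± 0.20, edgeR adjusted p = 0.0375), and its fall was lost with DESeq2 (-0.28, adjusted p = 0.241) and without any of 6 single libraries, such as control KIT-positive replicate 3 (-0.39, adjusted p = 0.0970).

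Mcm4, Mcm5, Mcm6, Mcm7 and Cdt1 did not pass the test against KIT-positive cells. Mcm7 was at 160.4, 164, 127, 133 and 123 in later cells (-0.14 ± 0.19, 95% interval -0.51 to 0.23). Mcm5 was at 90.2, 72.3, 71.5, 67.7 and 76.9 (-0.07 ± 0.21, -0.49 to 0.36) and Mcm6 at 78.4, 98, 77, 78.7 and 71.1 (-0.14 ± 0.22, -0.58 to 0.30). Mcm4 was at 103, 135, 145, 157 and 112 (-0.07 ± 0.20, -0.48 to 0.33) and Cdt1 at 59.3, 52.6, 45.3, 40.4 and 39.9 (0.03 ± 0.26, -0.48 to 0.54). Their intervals exclude a halving. All 5 were higher than in control MCAM-high cells, by 1.34 ± 0.20 for Mcm7, 0.98 ± 0.22 for Mcm5, 0.97 ± 0.23 for Mcm6, 0.94 ± 0.26 for Cdt1 and 0.61 ± 0.20 for Mcm4, each with an edgeR adjusted p of at most 0.00908. The Mcm4 call was lost without MCAM-high replicate 3 (0.49, adjusted p = 0.0729) or later library 3 (0.49, 0.0588).

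Against control MCAM-high cells in all, 7 start peaks rose (33.5% of all peaks) and 2 fell (24.9%). The share of called peaks that were higher was 57.4% with TMM and 67.9% with DESeq2. Of the ring subunits, the start peaks of Mcm4, Mcm5, Mcm6 and Mcm7 were thus higher than in MCAM-high cells, with those of Mcm4 and Mcm7 shared with Prkdc and Ap4m1. Mcm2 was lower by edgeR and not by DESeq2, and Mcm3 did not pass. Whether the subunits' changes differ from each other was not tested. Both later comparisons share the 5 later libraries and so are not independent of each other.

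**Figure D4:**
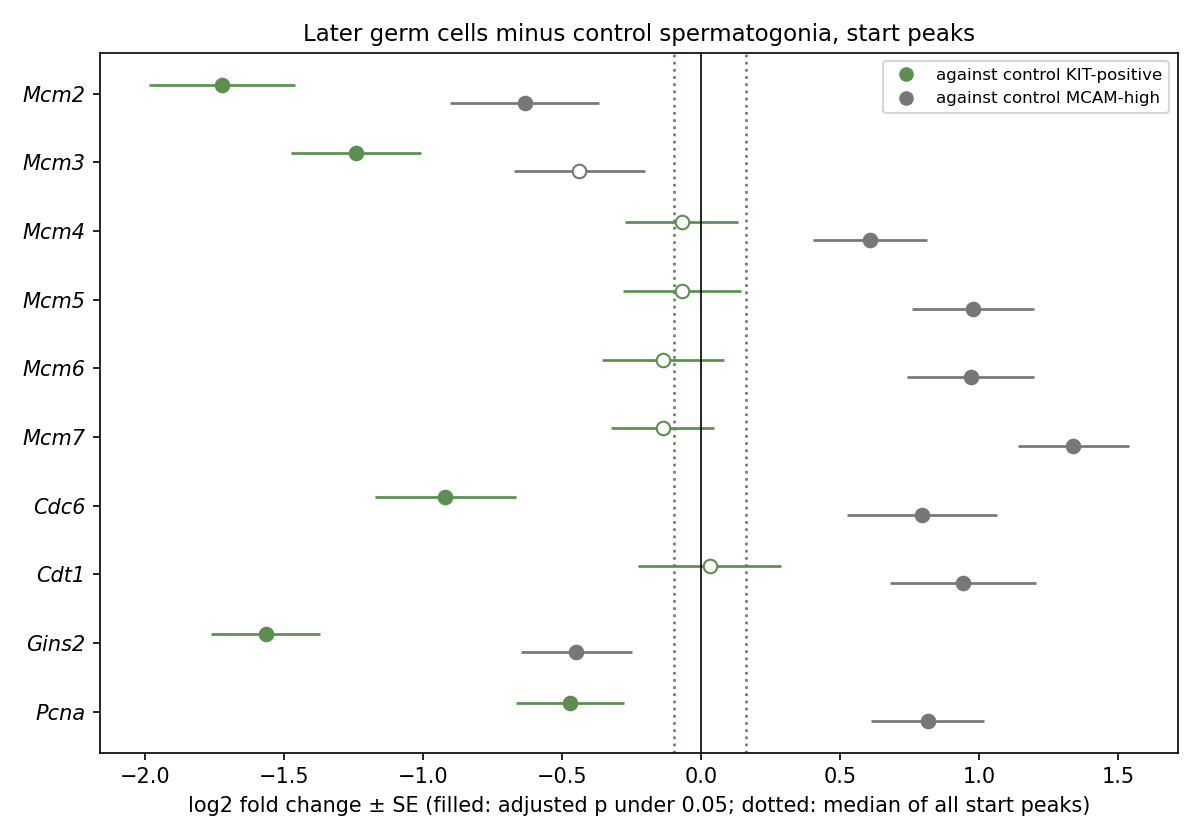
Log2 fold change of the start peak of each gene in later germ cells against control KIT-positive (green) and control MCAM-high cells (grey), with bars of 1 SE, filled points for an edgeR adjusted p under 0.05 and dotted lines for the median of all start peaks. Mcm2, Mcm3 and Gins2 lie left of 0 in both comparisons, whereas Mcm4, Mcm5, Mcm6, Mcm7 and Cdt1 lie near 0 against KIT-positive cells and right of 0 against MCAM-high cells.

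Outside the start peaks, the Tmem230 start peak downstream of Pcna rose in later cells to 58.2, 70.4, 63.5, 48.6 and 48.6 CPM (0.73 ± 0.28 against KIT-positive cells, edgeR adjusted p = 0.0262), the opposite of Pcna itself. The nearer peak downstream of Cdc6 fell to 2.16, 4.60, 3.97, 2.74 and 0 (-2.32 ± 0.55, edgeR adjusted p = 0.000425), with 0 counts in the fifth library, which allows up to 1.65 CPM (3 counts, counting error only). Among the later libraries, the first 2, titled spermatocyte, exceeded the other 3, titled round spermatid, at 6 of 10 start peaks (Mcm2, Mcm7, Cdc6, Cdt1, Gins2 and, by less than 0.1 CPM, Pcna), an order found at 14.4% of all peaks. Library names instead call libraries 1 to 3 round spermatid and libraries 4 and 5 spermatocyte. The first 2 libraries are thus spermatocyte by title and round spermatid by name. The cell type of the higher libraries therefore depends on the label used. With 2 against 3 libraries and titles that disagree with the library names, neither split was tested.

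Across the 7 groups the 10 genes shared a common order at the top. Both KIT-positive groups held the 2 highest means in 9 of 10 genes, the exception being Cdt1, where later germ cells came second. Deleted KIT-positive cells were highest in 7 genes and control KIT-positive cells in 3, and these neighbours did not differ beyond their spread. Later germ cells came next in 6 genes and last in 2 (Mcm2 and Gins2). The order of the 4 KIT-negative groups differed from gene to gene. Over the 22 libraries, log2(CPM + 1) of Cdc6 and Pcna correlated with r = 0.93 and that of Mcm2 and Gins2 with r = 0.92, whereas Mcm2 and Mcm4 gave 0.13 and Mcm3 and Cdt1 0.15. All of these values share library depth and scaling and are given as a description of 45 pairs.

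Other protein-coding start peaks among those most like the mean profile of the 10 genes over the 22 libraries, out of 13647 gene starts outside the lists used here, were those of H3f4 (r = 0.96), Gpatch8 (0.95), Tmem87b (0.95) and Wdr78 (0.95). H3f4 encodes a histone H3.

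Of the remaining replication genes, those that changed with KIT in control cells all rose. The 6 lists of other genes of the pathway held 64 genes, of which 62 had a tested start peak. In control KIT-positive against MCAM-high cells 21 rose and 0 fell, with a median of 0.56, compared with 16% rising, 4.32% falling and a median of 0.22 over all start peaks. In deleted cells 18 rose and 0 fell, with a median of 0.58. Over all start peaks 15.6% rose and 3.06% fell in that comparison, with a median of 0.21. With deletion averaged over the 3 populations 0 passed, at a median of 0.01.

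Origin recognition and loading genes rose in 4 of 8 cases, led by Mcmbp, which binds Mcm subunits (1.72 ± 0.39, edgeR adjusted p = 0.00166), and the origin recognition subunit Orc6 (0.97 ± 0.22, 0.00188). Helicase activation genes rose in 4 of 12, led by Recql4, a helicase that acts in initiation (1.09 ± 0.32, edgeR adjusted p = 0.0142), and Ticrr, which helps to bring in Cdc45 (0.94 ± 0.23, 0.00349). Polymerase and fork genes rose in 6 of 23, led by the clamp loader subunit Rfc2 (1.97 ± 0.46, edgeR adjusted p = 0.00209) and the flap endonuclease Fen1 (1.48 ± 0.25, 5.37e-05). None of these lists held a start peak that fell.

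Nucleotide supply genes rose in 2 of 6, among them the dUTPase gene Dut (0.76 ± 0.24, edgeR adjusted p = 0.0247). Of the MCM paralogs with roles in recombination, 2 of 3 rose, Mcm8 (1.14 ± 0.28, edgeR adjusted p = 0.00328) and Mcm9 (0.96 ± 0.24, 0.00457). In the E2F and RB family 3 of 10 rose, led by the pocket protein gene Rbl1 (1.28 ± 0.32, edgeR adjusted p = 0.00369) and E2f7, which encodes a repressing E2F (1.10 ± 0.30, 0.00823). In later germ cells against KIT-positive cells, 7 of the 62 rose and 24 fell, with a median of -0.34 against -0.10 over all start peaks. Over all start peaks 24.2% rose and 28.5% fell. The fork list held 11 of the 24 falls, among 23 tested genes, and the nucleotide list 4, among 6.

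**Figure D5:**
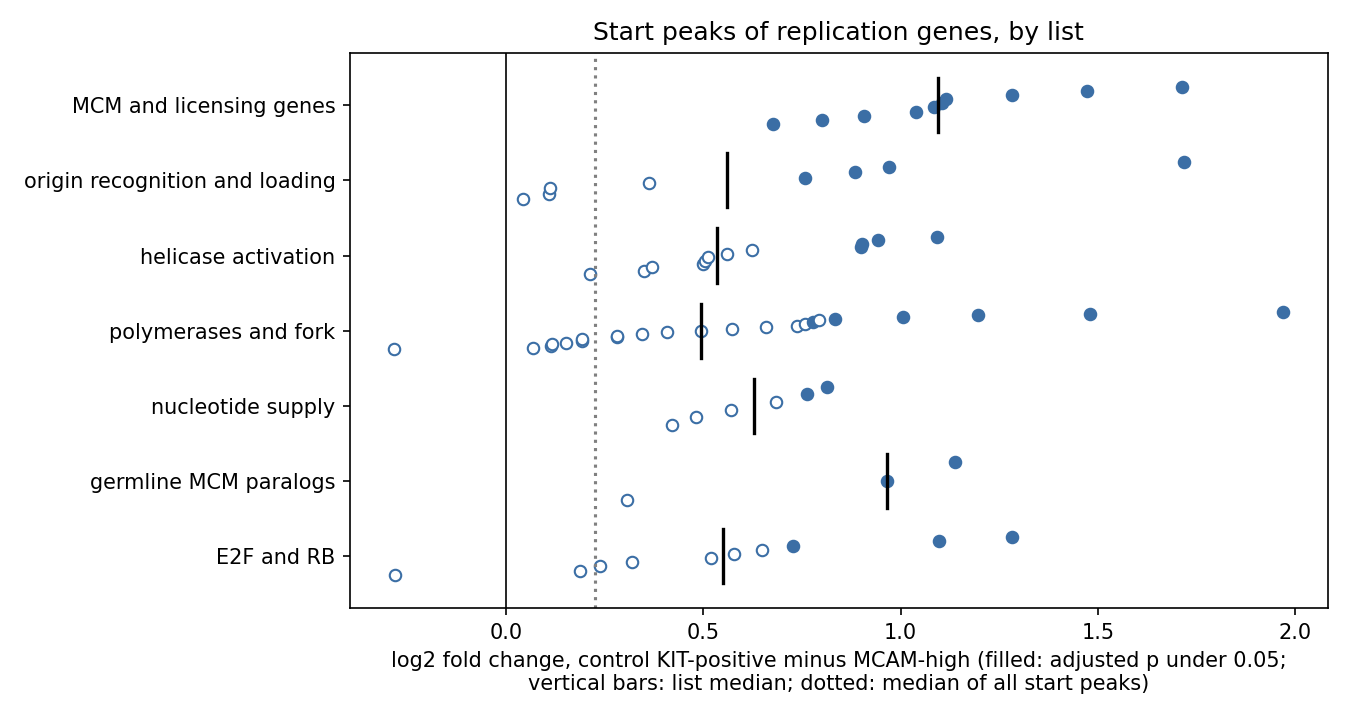
Log2 fold change in control KIT-positive against MCAM-high cells for the start peaks of the MCM and licensing genes and of 6 lists of other replication genes, 1 point per gene. Filled points passed an edgeR adjusted p of 0.05, black bars are list medians and the dotted line is the median of all start peaks, 0.22. The MCM and licensing genes have a median of 1.09, and the 62 other genes one of 0.56.

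Start peaks with E2F letters could also be compared with others. In control cells, 534 of the 11301 tested start peaks with a listed promoter window had the letters, of which 29.2% rose with KIT (median 0.45), against 16.5% of those without (median 0.23). In deleted cells the shares were 27.9% and 15.9%. Start peaks with CCAAT rose in 19.9% of cases in control and 20.8% in deleted cells. The shares for any start peak with a listed window were 17.1% and 16.5%. These shares describe the peaks and were not tested, since peaks of 1 library are not independent. Among the 8 genes with a listed window, Cdc6 and Mcm7, with the E2F letters, and Pcna, without them, had the 3 largest rises in control cells, which were also the 3 largest of all 10 genes. Mcm3 and Cdt1, also with the E2F letters, had the smallest rises of the 8.

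Cell type markers were read beside these results. Of 7 differentiating spermatogonial markers 4 rose in control KIT-positive against MCAM-high cells, among them Kit (0.99 ± 0.26, edgeR adjusted p = 0.00647) and Stra8 (1.18 ± 0.35, 0.0171), and their summed CPM was 178 to 206 in MCAM-high and 310.2 to 407 in KIT-positive libraries. Of 8 meiotic markers 3 rose, with sums of 209.7 to 234 and 253 to 286. Of 8 undifferentiated markers with a start peak 1 fell, Ccnd2 (-1.66 ± 0.33, edgeR adjusted p = 0.000422), with sums of 299 to 344 and 245 to 408 that overlap. Sertoli markers (5 of 7 with a start peak) summed to 86.6 to 96.8 in MCAM-high and 89.6 to 102 in KIT-positive libraries with 0 called. Of 3 tested peritubular or endothelial markers Acta2 rose (1.19 ± 0.42, edgeR adjusted p = 0.0444), with sums of 37.9 to 51.6 and 32.5 to 69.1 that overlap. Of 2 tested round spermatid markers Crem rose (0.73 ± 0.22, edgeR adjusted p = 0.0173), and the 1 tested Leydig marker did not pass.

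In deleted KIT-positive against MCAM-high cells 3 of 7 differentiating markers rose, with sums of 194 to 266 and 319.8 to 333. Of 8 undifferentiated markers Etv5 (0.85 ± 0.22, edgeR adjusted p = 0.00696) and Id4 (1.09 ± 0.37, 0.0388) rose and Ccnd2 (-1.0 ± 0.32, 0.0302) fell. Their sums were 263 to 273 in deleted MCAM-high and 320.0 to 392 in deleted KIT-positive libraries, higher without overlap in the population labelled differentiating. Of 5 Sertoli markers Amh fell (-1.01 ± 0.33, edgeR adjusted p = 0.0318). Sums of the 8 meiotic markers, 207 to 292 and 264 to 303, and of the 3 peritubular or endothelial ones, 36.3 to 43.7 and 37.6 to 40.3, overlap. In bulk libraries a larger share of cells with an open start and a more open start in each cell cannot be told apart. The part of these markers in the results for the licensing genes was not tested.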

How the data were processed

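The authors deposited 1 table of raw read counts for 96049 peaks in 22 libraries, with chromosome, start and end per the file headers; all columns of counts were matched to a sample. The tools listed per the submitters' processing notes are Bowtie2, Picard, SAMtools and FastQC, and the builds GRCm38, mm10 and hg19, with no role for any. Peak calling, counting, any Tn5 shift of reads and any duplicate filter are not given in the sources used here. Peak starts were used as deposited, because their first base (0 or 1) was not given.

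Members were peaks that overlapped a gene or its 2 kb flanks in a RefSeq gene table (GRCm38.p6). A start peak covered a start in the RefSeq promoter table or, where none was listed, lay within 1000 bp of an end of the gene. Members and gene lists were chosen with earlier results of these data known. The text names all 10 genes, for each other list the 2 called genes with the largest change in control KIT-positive minus MCAM-high cells, and the 5 start peaks most like the mean of the 10; some items these rules pick are not reported here.

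The test of the counts was that of edgeR 4.0.16 under R 4.3.3 (TMM, filterByExpr, quasi-likelihood F test, Benjamini-Hochberg adjustment over all peaks tested, threshold 0.05), in 1 fit of 17 spermatogonial libraries (57289 peaks) and 1 of the 13 control and later libraries (73134 peaks). The script was tested on simulated data. A standard error is the log2 fold change divided by the root of F, and CPM uses TMM factors of all 22 libraries. Alternatives were DESeq2 1.42.0, total counts without TMM, TMM on start peaks only (chosen after seeing the data), no filter on low counts, only the groups compared, replicate blocks and each library left out in turn.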

Additional observations from a re-analysis of the deposited data

Results flagged for a closer look

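In the later germ cells, the only group with more than 3 libraries, 2 of the 14 member peaks had 1 library far from the other 4. At the Mcm6 start peak library 2, titled spermatocyte, was at 98.0 CPM while the others were between 71.1 and 78.7. At the Pcna start peak library 1, also titled spermatocyte, was at 138 CPM while the others were between 96.5 and 103. Chance flags about 1 in 20 groups.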

How the results depend on the processing

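Results are counts of the 14 member peaks called. In control KIT-positive minus MCAM-medium cells the count was 7, and it became 3 with only the groups compared and 4 with a replicate block, and ranged from 2 (without MCAM-medium replicate 1) to 9 (without KIT-positive replicate 1) over left-out libraries. Leaving out an MCAM-medium control library leaves 1 in that group, whose spread is then assumed to equal that of the other groups. In deleted KIT-positive minus MCAM-medium cells the count was 10, and left-out libraries gave 6 to 8. Control KIT-positive minus MCAM-high kept 9 to 12, deleted KIT-positive minus MCAM-high 6 to 8, later cells minus KIT-positive 5 to 7, and later cells minus MCAM-high 7 to 12. Deletion, MCAM-medium minus MCAM-high and interaction counts were 0 under every alternative run.

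In control KIT-positive minus MCAM-high cells the calls of Mcm3, Mcm4 and Cdt1 were also lost with only the groups compared (adjusted p = 0.0610, 0.0984 and 0.0719), those of Mcm3 and Mcm4 with no filter on low counts (0.0668 and 0.0804), and that of Cdt1 without MCAM-high replicates 2 or 3 (0.0604 and 0.143). With only the groups compared Mcm6, Mcm7, Gins2 and Pcna were lost against MCAM-medium cells (0.0706 to 0.0854). With no filter Pcna against KIT-positive cells (0.0607) and Gins2 against MCAM-high cells (0.0585) were lost in later cells. With the replicate block Mcm4 (adjusted p = 0.0830) and Cdt1 (adjusted p = 0.0859) were lost, as were Mcm6 (0.0822) and Gins2 (0.0542) against control MCAM-medium and Mcm4 (0.0601) against deleted MCAM-medium cells. The cause was not tested. Deviations of libraries with the same genotype and number correlated with r of -0.42 to 0.05 over 16 pairs (median -0.02). With different numbers r was -0.22 to 0.42 over 32 pairs (median 0.02). The 2 control MCAM-medium libraries deviate as mirror images, giving -0.42 and 0.42 with MCAM-high replicate 1. These values therefore cannot decide whether replicate numbers pair the samples. The faint peaks outside the genes, with a median of 9 to 31.5 counts, limit what can be called there.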
